A study of Mus musculus with 6 samples.

Results

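The deposited count table of this series has 18512 rows, and 41 of them carry a symbol built like that of a collagen alpha chain, with Col, a type number, the letter a and a chain number. A mean of at least 20 raw counts over the 6 libraries kept 22 of these rows. Col4a3bp, among the 22, has the pattern in its symbol but encodes the ceramide transfer protein, so it is given apart, and the other 21 rows are the collagen genes described here. The remaining 19 rows stayed under the minimum. Just inside it lay Col4a3, with a mean of 22.7 raw counts, and Col4a5, with 28.0, and just outside it lay Col23a1, with 15.7, and Col4a4, with 14.

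The libraries came from NMuMG, an established epithelial line of the mouse mammary gland that undergoes the epithelial-mesenchymal transition (EMT) under TGF-β. Cells received the vehicle DMSO, TGF-β (5 ng/ml), or TGF-β+2APB (5 ng/ml TGF-β and 50 uM 2APB), and each of these 3 groups has 2 replicates. Treatment lasted 24 h, the sources differ on whether 2APB was added before TGF-β, and no library came from 2APB alone. Replicates are described as biological, without a statement of separate cultures. The FDR values below thus judge group differences against the spread between these libraries only. In bulk RNA fewer cells with a transcript and less of it per cell cannot be told apart.

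Collagens are mostly secreted proteins whose alpha chains wind around each other into a helix, and the chain composition sets where the protein goes. Fibrillar collagens build fibrils, FACIT collagens sit on fibril surfaces, type IV makes the sheet of the basement membrane under an epithelium, type VII anchors that sheet to the stroma, type VI makes beaded filaments, and the multiplexins XV and XVIII border basement membranes. TGF-β is best known for raising fibrillar collagen genes in fibroblasts, and 2APB is used to block store-operated calcium entry.

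Each library held between 71840570 and 79473182 counts assigned to genes, and all values were even, so the smallest count above 0 was 2. Counts were scaled by TMM, 13353 rows whose mean normalized count reached 20 were tested with edgeR's quasi-likelihood test, and a Benjamini-Hochberg FDR of 0.05 or less is called a change. Of 6 epithelial markers used to check the label, the keratins Krt8 and Krt18 were the most abundant, Epcam was low, at 52 to 158 counts, and Cldn4 was nearly absent from DMSO, at 2 and 6 counts. Under TGF-β 3 of them rose (Krt8, Krt18 and Cldn4) and 3 fell (Cdh1, Epcam and Krt19).

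Under TGF-β, 12 of the 21 collagens rose and 0 fell against DMSO, beside 41.5% of all tested rows called, 21.8% higher and 19.7% lower (edgeR quasi-likelihood test, FDR 0.05 or less). The rises took in fibrillar chains (5 of 6), all 3 type VI chains, the only type VII chain, 2 of 4 FACIT chains and 1 of 2 multiplexins, while 0 of 4 type IV chains and not the transmembrane collagen Col17a1 were called. The median log2 fold change of the 21 was 1.79, against -0.01 over all tested rows. Col11a1, Col6a3 and Col17a1 reached the count minimum only through the treated libraries and Col4a5 only through DMSO, so the direction of their difference from DMSO was favoured by the choice. Without these 4 genes 10 of 17 rose, with a median of 1.79. Col4a3, not called in any comparison, stayed among the 17. Its normalized means were 30.2 in DMSO, 21.2 under TGF-β and 16.8 under TGF-β+2APB, so it too reached the minimum more through DMSO. DESeq2 called 14 of the 21, all 14 higher, beside 47.4% of all tested rows. With the replicate number added to the model, 12 were higher and 1 lower, beside 35.5% of all tested rows. The lower gene was Col4a5 (edgeR quasi-likelihood FDR 0.0354).

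Adding 2APB to TGF-β raised some of these collagens and lowered others, while 14 of the 21 were not called. Against TGF-β alone 7 of the 21 were called, beside 17.5% of all tested rows (6.58% higher, 10.9% lower, edgeR quasi-likelihood test): Col6a1, Col6a2, Col12a1 and Col18a1 fell, and Col5a3, Col15a1 and Col20a1 rose. The median log2 fold change of the 21 was 0.18. The 4 that fell had all risen under TGF-β, whereas of the 3 that rose Col5a3 alone had done so. The TGF-β libraries enter both comparisons, so these rises and falls are not independent of each other. The count changed on leaving out single libraries, being higher without TGF-β replicate 2 and lower without TGF-β+2APB replicate 1. Calls over all tested rows moved in the same directions, and the cause was not tested.

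Against DMSO, TGF-β+2APB raised 15 of the 21 and lowered 1, Col4a5, beside 52.8% of all tested rows (25.6% higher, 27.2% lower, edgeR quasi-likelihood test). The median was 1.12 over the collagens and 0 over all tested rows, and without the 4 genes that passed through 1 side only 12 of 17 were higher and 0 lower, with a median of 1.04. Col15a1, Col20a1, Col17a1, Col4a1 and Col4a2 were called higher here and not under TGF-β alone, and Col6a1 and Col6a2 the other way round. Of these, Col15a1, Col20a1, Col6a1 and Col6a2 also differed between the 2 treated groups themselves, and Col17a1, Col4a1 and Col4a2 did not pass that test.

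**Figure D1:**
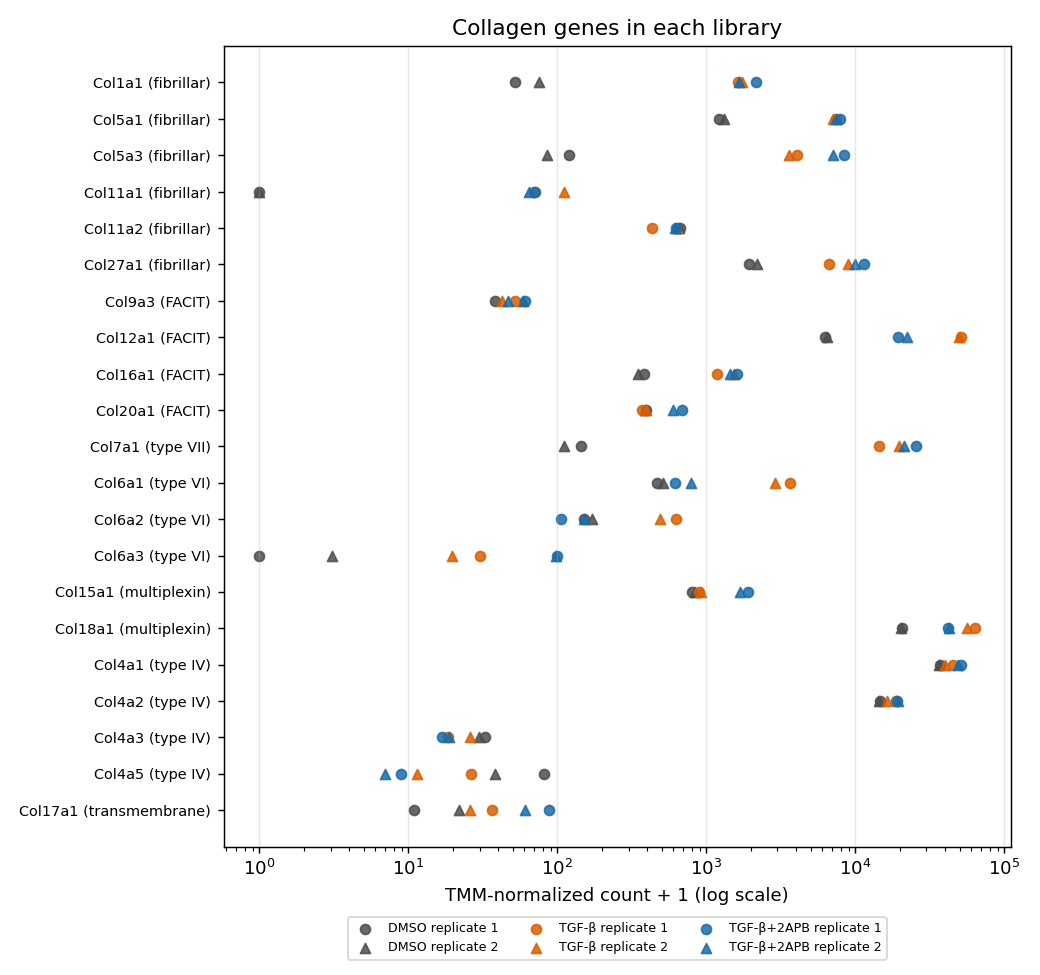
TMM-normalized counts plus 1 (log scale) of the 21 collagen genes in each of the 6 libraries, ordered by class, with circles for replicate 1 and triangles for replicate 2. Col7a1, Col5a3 and Col1a1 lie far to the left in DMSO only, Col6a1 and Col12a1 are furthest right in TGF-β, and the type IV chains Col4a1 and Col4a2 lie close together in all 6 libraries.

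Col7a1 made the largest rise of the collagens with counts in DMSO. It encodes the chain of the anchoring fibrils that fasten an epithelium's basement membrane to the tissue beneath, and lies at chr9:108953586-108984875 on the plus strand (GRCm38). The DMSO libraries held 146 and 106 counts, those under TGF-β 14814 and 18976, and those under TGF-β+2APB 25752 and 21460. Both treated groups were thus far above DMSO, with no overlap, and the TGF-β+2APB libraries were both above the TGF-β libraries. Normalized means were 126 ± 24 in DMSO, 17059 ± 3720 under TGF-β and 23331 ± 3056 under TGF-β+2APB (SD, n = 2). The log2 fold change of TGF-β over DMSO was 7.07 (SE 0.26, edgeR quasi-likelihood FDR 5.13e-05), and both agents together gave 7.52 (SE 0.26, FDR 2.52e-05). Between the treated groups it was 0.45 (SE 0.19, edgeR quasi-likelihood FDR 0.161), which was not called. Per kilobase of exon its level went from 12.3 normalized counts in DMSO to 1660 under TGF-β and 2270 with both agents.

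The 300 bases around the Col7a1 start (250 before it and 50 after, RefSeq on GRCm38.p6, chr9:108953336-108953635, plus strand) are shown because this gene moved furthest among those collagens. Capitals mark, on either strand, the SMAD-binding motif CAGAC, the GC box GGGCGG and the CCAAT box.
Col7a1: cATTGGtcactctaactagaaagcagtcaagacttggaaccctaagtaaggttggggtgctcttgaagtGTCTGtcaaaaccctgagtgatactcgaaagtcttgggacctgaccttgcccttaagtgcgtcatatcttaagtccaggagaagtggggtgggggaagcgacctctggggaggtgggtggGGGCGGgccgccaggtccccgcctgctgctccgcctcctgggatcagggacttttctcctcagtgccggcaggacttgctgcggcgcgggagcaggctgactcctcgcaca
The window held 1 match of each. A search of 32544 distinct RefSeq promoters of this length found CAGAC in 49.5%, GGGCGG in 35.9% and CCAAT in 37.4%, so such matches are common. Of the 21 collagens 17 had an entry, and 10 of the 17 held CAGAC, 12 held GGGCGG and 9 held CCAAT, with no match of the palindrome GTCTAGAC, which 0.215% of all promoters held.

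Among the fibrillar chains, Col5a3, Col1a1, Col5a1, Col27a1 and Col11a1 rose under TGF-β, and the sixth, Col11a2, did not. Col5a3 encodes an alternative chain of type V collagen, the minor fibrillar type that sets fibril diameter. Its counts were 120 and 82 in DMSO, 4134 and 3446 under TGF-β, and 8462 and 7162 under TGF-β+2APB. The 3 groups formed separate steps upward. The log2 fold change was 5.23 under TGF-β (SE 0.19, edgeR quasi-likelihood FDR 5.21e-05) and a further 1.02 with 2APB added (SE 0.15, FDR 0.0118), a call that was lost without TGF-β+2APB replicate 1 (FDR 0.0587). With both agents the gain over DMSO in normalized counts was 206% of the gain under TGF-β alone.

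Col5a1, the chain common to most type V collagen, had 1242 and 1274 counts in DMSO, 7554 and 6868 under TGF-β and 7996 and 7472 under TGF-β+2APB. It was thus high in both treated groups. The log2 fold change was 2.51 under TGF-β (SE 0.08, edgeR quasi-likelihood FDR 4.47e-05), 2.59 under TGF-β+2APB (SE 0.08, FDR 2.31e-05) and 0.08 between them (SE 0.08, FDR 0.534). Per kilobase, the level of Col5a1 was 8.30 and 12.5 times that of Col5a3 in the DMSO libraries, 1.47 and 1.60 times under TGF-β, and 0.758 and 0.837 times under TGF-β+2APB. Per kilobase, the order of these chains was therefore turned in both libraries with 2APB. In raw counts Col5a3 exceeded Col5a1 in TGF-β+2APB replicate 1 only.

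Col1a1 encodes the main chain of type I collagen, the chief fibrillar collagen of connective tissue. It had 52 and 72 counts in DMSO, 1668 and 1662 under TGF-β, and 2176 and 1668 under TGF-β+2APB. The treated groups did overlap each other but not DMSO. Its log2 fold change under TGF-β was 4.74 (SE 0.23, edgeR quasi-likelihood FDR 0.000103), both agents together gave 4.92 (SE 0.23, FDR 5.62e-05), and the step between them was 0.18 (FDR 0.54). Its partner chain Col1a2 was nearly absent, with 0 counts in both DMSO libraries and 2 to 6 in each treated library. Per kilobase Col1a1 exceeded it by 526 to 2060 times in the treated libraries. This range rests on those few Col1a2 counts, and no interval was computed for it. It also depends on the annotated exon lengths, 6563 bases for Col1a1 and 12426 for Col1a2. Col3a1, which often accompanies type I collagen, had 4 to 12 counts in every library, and Col5a2, the usual partner of Col5a1, had 0 in DMSO and 8 to 10 in the treated libraries.

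Col27a1, a fibrillar chain known from cartilage, had 1978 and 2112 counts in DMSO, 6780 and 8572 under TGF-β, and 11526 and 10078 under TGF-β+2APB. On the log2 scale it changed by 1.91 under TGF-β (SE 0.17, edgeR quasi-likelihood FDR 0.000645) and 2.37 under TGF-β+2APB (SE 0.17, FDR 0.000193). The groups were ordered without overlap, although the last step, 0.46, was not called (SE 0.16, edgeR quasi-likelihood FDR 0.111). Col11a1, a minor cartilage chain, went from 0 counts in both DMSO libraries to 70 and 106 under TGF-β and 70 and 64 under TGF-β+2APB. Set against a floor of 3 counts in each DMSO library, it was at least 29.5-fold higher under TGF-β (edgeR quasi-likelihood FDR 0.00103) and at least 21.9-fold higher under TGF-β+2APB (FDR 0.000763), bounds that cover counting error only and come to 14.7-fold and 10.9-fold when the even counts are divided by 2. Its partner chain Col11a2 was not called in any comparison, with 678 and 628 counts in DMSO, 444 and 608 under TGF-β and 628 and 618 under TGF-β+2APB. Over the alternative settings the log2 change of Col11a2 under TGF-β ran from -0.6 to -0.05.

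**Figure D2:**
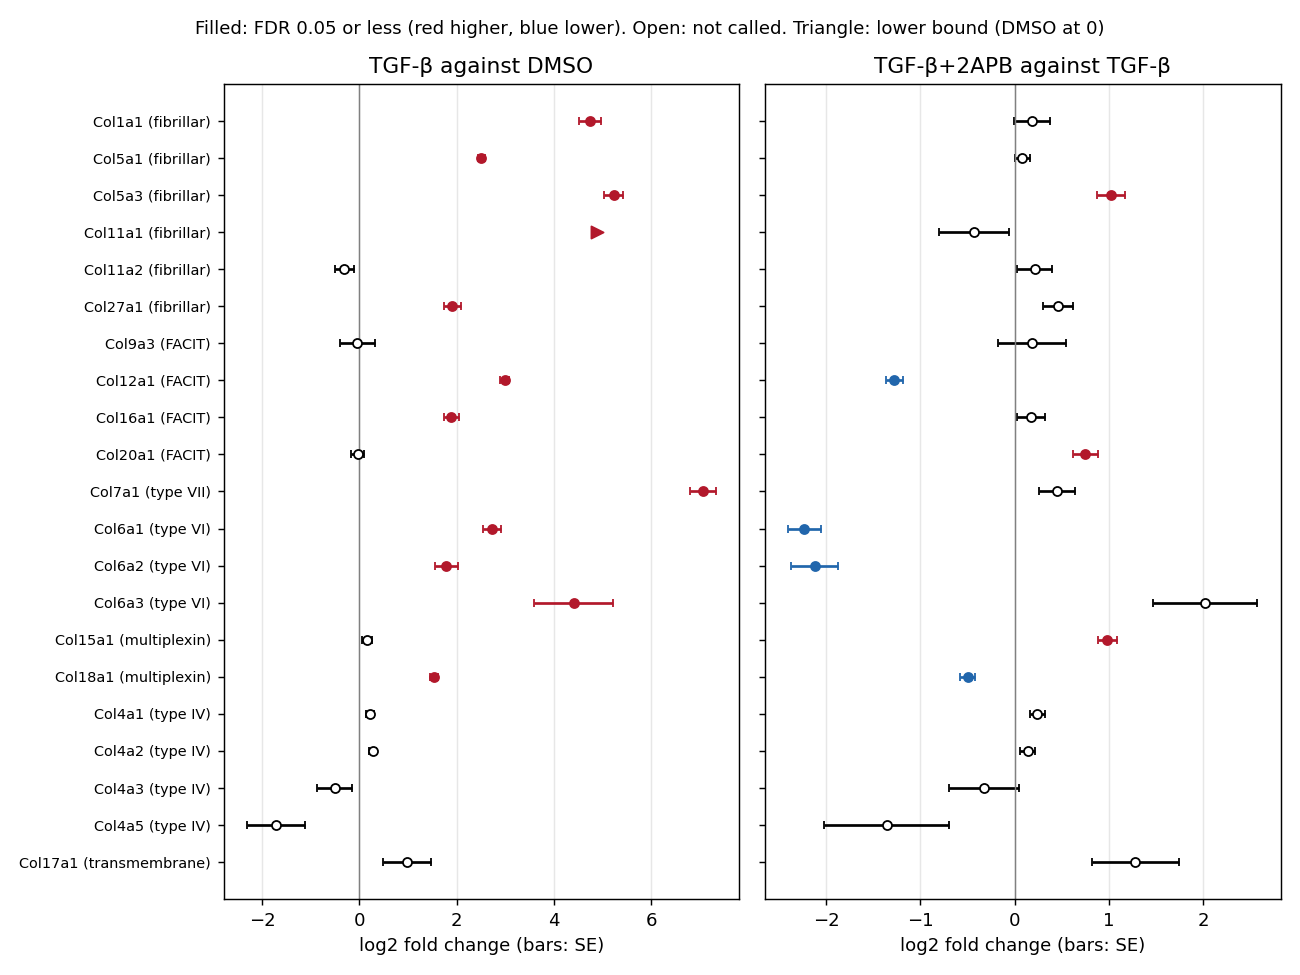
Log2 fold changes with SE of the 21 collagen genes for TGF-β over DMSO (left) and TGF-β+2APB over TGF-β (right), with filled points for called changes (FDR 0.05 or less, red higher and blue lower) and open points for the others. The Col11a1 triangle on the left is a lower bound, all 12 filled points on the left lie above 0, and on the right 4 lie below 0 and 3 above.

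Type VI collagen is built from the chains of Col6a1, Col6a2 and Col6a3, and Col6a1 and Col6a2 had the largest called falls with 2APB among the collagens. Col6a1 had 474 and 498 counts in DMSO, 3732 and 2780 under TGF-β, and 616 and 794 under TGF-β+2APB. It stood out in TGF-β alone, and its TGF-β+2APB libraries lay just above those of DMSO. The log2 fold change was 2.73 under TGF-β (SE 0.18, edgeR quasi-likelihood FDR 0.00024) and -2.23 with 2APB added (SE 0.17, FDR 0.00326), so that 7.45% of the rise in normalized counts was present with both agents. The remainder over DMSO, 0.51 (SE 0.17), lay at an edgeR quasi-likelihood FDR of 0.0513 and was called in 8 of 16 alternative settings.

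Col6a2 followed the same course at a lower level, with 152 and 164 counts in DMSO, 638 and 466 under TGF-β, and 106 and 152 under TGF-β+2APB. Its change on the log2 scale was 1.79 under TGF-β (SE 0.24, edgeR quasi-likelihood FDR 0.00287) and -2.12 with 2APB added (SE 0.25, FDR 0.00681). The TGF-β+2APB and DMSO libraries overlapped, and the difference between those groups, -0.32, was not called (edgeR quasi-likelihood FDR 0.311). The rise and the fall of both genes were called in all 16 alternative settings. The level of Col6a1 per kilobase was 5.93 and 5.77 times that of Col6a2 in DMSO, 11.1 and 11.3 times under TGF-β, and 11 and 9.93 times under TGF-β+2APB. These ratios divide by all annotated exons, 4380 bases for Col6a1 and 8326 for Col6a2, so their size depends on the lengths taken. Their change between groups does not.

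Col6a3, the long chain that completes the type VI molecule, had another order of levels. Its counts were 0 and 2 in DMSO, 30 and 18 under TGF-β, and 100 and 98 under TGF-β+2APB. The summed counts were 23.9 times those of DMSO under TGF-β (95% exact interval 6.28 to 203, counting error only) and 97.1 times under TGF-β+2APB (26.5 to 807). These intervals widen to 3.91 to 985 and 17.0 to 3870 when the even counts are divided by 2. Both differences from DMSO were called (edgeR quasi-likelihood FDR 0.00814 and 0.00127), while the step between the treated groups, 2.02 on the log2 scale (SE 0.55), was not, at an FDR of 0.0591. It was called by DESeq2, on halved counts and by the newer edgeR fit (3 of 15 alternative settings). Per kilobase, Col6a1 exceeded Col6a3 by 340 and 422 times under TGF-β and by 16.8 and 22.1 times under TGF-β+2APB.

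Col6a2 (chr10:76595762-76623630) and Col6a1 (chr10:76708792-76726168) lie on the minus strand with 85.2 kb between them, and Col18a1 (chr10:77052178-77166548, minus strand) lies 326 kb beyond Col6a1. These neighbours on chromosome 10 are 3 of the 4 collagens that rose under TGF-β and fell with 2APB. The remaining one, Col12a1, is on chromosome 9. Col9a3 and Col20a1, 364 kb apart on the plus strand of chromosome 2, did not move together, as only Col20a1 was called with 2APB. A part of position in these changes was not tested. The RefSeq start windows of Col6a1 (chr10:76725995-76726294, minus strand) and Col6a2 (chr10:76623581-76623880, minus strand, the outer of its 2 starts), on GRCm38.p6, are printed for this pair that moved together, with capitals as above.
Col6a1: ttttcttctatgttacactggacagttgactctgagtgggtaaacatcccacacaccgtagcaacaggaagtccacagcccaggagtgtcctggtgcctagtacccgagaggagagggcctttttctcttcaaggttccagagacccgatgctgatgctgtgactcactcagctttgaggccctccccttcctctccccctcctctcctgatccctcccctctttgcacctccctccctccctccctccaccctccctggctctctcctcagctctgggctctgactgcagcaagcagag
Col6a2: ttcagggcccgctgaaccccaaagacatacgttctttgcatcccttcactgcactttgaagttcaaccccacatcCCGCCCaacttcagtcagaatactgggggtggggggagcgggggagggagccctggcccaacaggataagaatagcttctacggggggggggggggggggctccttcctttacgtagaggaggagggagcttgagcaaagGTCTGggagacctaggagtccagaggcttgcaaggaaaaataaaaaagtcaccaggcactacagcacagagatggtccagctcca
The Col6a1 window held none of the motifs searched, and the Col6a2 window printed held 1 CAGAC, read as GTCTG on the strand printed, and 1 GC box. The window of the other Col6a2 start (chr10:76623355-76623654, minus strand) held 0 CAGAC and 3 GC boxes. No match says only that these letters are not in the window searched.

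**Figure D3:**
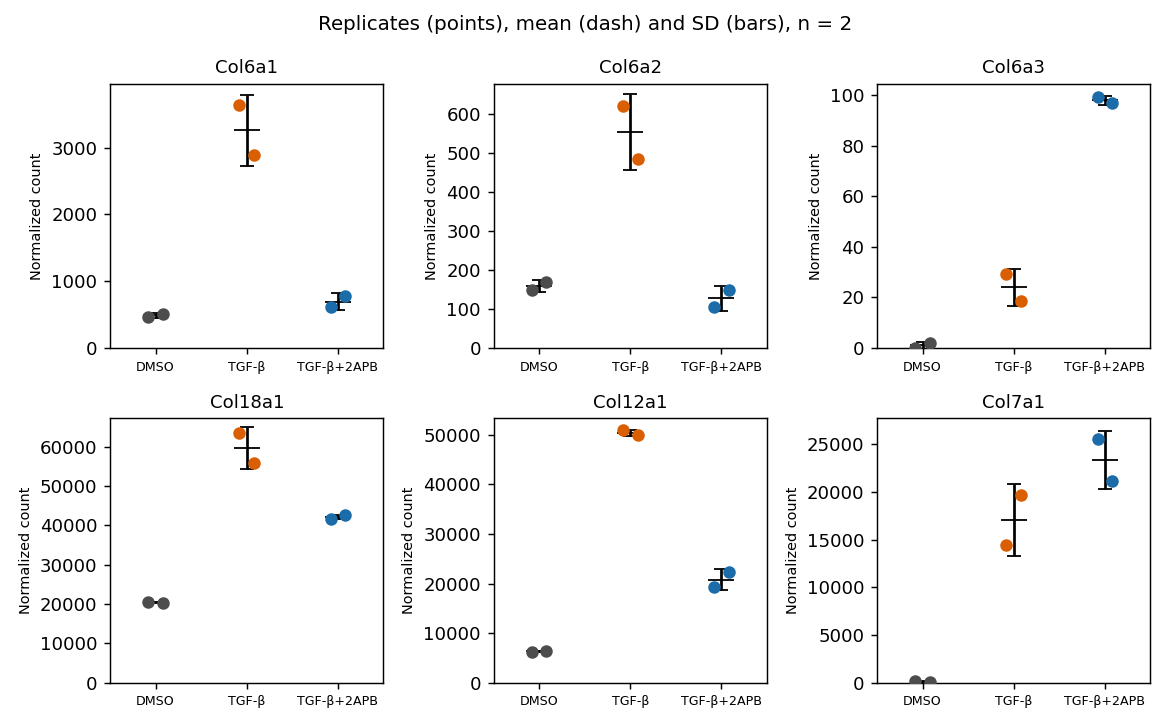
Normalized counts of 6 collagen genes in each replicate (points), with the group mean (dash) and SD (bars, n = 2), each panel on its own linear axis from 0. Col6a1, Col6a2, Col18a1 and Col12a1 peak in TGF-β, whereas Col6a3 and Col7a1 are highest in TGF-β+2APB.

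Col12a1 was the most abundant FACIT chain, and its protein decorates type I fibrils in tissues under tension. It had 6338 and 6242 counts in DMSO, 52222 and 48164 under TGF-β, and 19534 and 22550 under TGF-β+2APB. The groups did not overlap, and TGF-β+2APB lay between the others. The log2 fold change was 2.99 under TGF-β (SE 0.09, edgeR quasi-likelihood FDR 3.66e-05) and -1.28 with 2APB added (SE 0.09, FDR 0.00307). It stayed above DMSO by 1.71 (SE 0.09, edgeR quasi-likelihood FDR 7.09e-05), with 32.8% of the rise in normalized counts present. The call of the fall was present in all 16 alternative settings.

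The other FACIT chains each did something else. Col16a1, which is found at epithelial basement membranes among other places, had 386 and 338 counts in DMSO, 1204 and 1466 under TGF-β, and 1608 and 1460 under TGF-β+2APB, and rose by 1.89 on the log2 scale under TGF-β (SE 0.15, edgeR quasi-likelihood FDR 0.000492) and by 2.06 with both agents (SE 0.15, FDR 0.000222). Col20a1 had 400 and 372 counts in DMSO and 376 and 378 under TGF-β, and only the TGF-β+2APB libraries, with 688 and 600, stood higher. Its rise over TGF-β was 0.75 (SE 0.13, edgeR quasi-likelihood FDR 0.0176), called in 12 of 16 alternative settings with FDR values up to 0.0954, and lost without either DMSO replicate or TGF-β+2APB replicate 1. Col9a3, a cartilage FACIT chain, stayed between 38 and 60 counts in all libraries, and its exons share 234 bases with Tcfl5 on the opposite strand, from which its reads cannot be separated without a strand setting, which the sources used here do not give.

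The multiplexins parted ways. Col18a1, whose protein yields the fragment endostatin, had 20864 and 19726 counts in DMSO, 65044 and 53794 under TGF-β, and 42148 and 43100 under TGF-β+2APB. TGF-β+2APB again lay between the other groups without overlap. The log2 fold change was 1.54 under TGF-β (SE 0.08, edgeR quasi-likelihood FDR 0.000131), with 55.4% of the rise in normalized counts present with both agents. The fall with 2APB, -0.50 (SE 0.08, edgeR quasi-likelihood FDR 0.0144), was called in 11 of 16 alternative settings, with FDR values up to 0.101, and was lost without either DMSO or either TGF-β+2APB replicate.

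Col15a1, the other multiplexin, had 818 and 806 counts in DMSO and 916 and 888 under TGF-β, a log2 difference of 0.15 that was not called (SE 0.1, edgeR quasi-likelihood FDR 0.278). Under TGF-β+2APB it had 1918 and 1692, above every other library. It was 0.98 higher on the log2 scale than under TGF-β alone (SE 0.1, edgeR quasi-likelihood FDR 0.00501), called in all 16 alternative settings, and 1.12 higher than in DMSO (SE 0.1, FDR 0.000378). With 2APB one multiplexin thus rose and the other fell.

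Type IV collagen, the basement membrane network, came mainly from Col4a1 and Col4a2, whose chains assemble together. Col4a1 was the most abundant collagen transcript of DMSO per kilobase, at 4910 normalized counts, followed by Col18a1 at 2910, Col4a2 at 2190 and Col12a1 at 416. It had 37382 and 35390 counts in DMSO, 46068 and 38618 under TGF-β, and 51568 and 49784 under TGF-β+2APB. The groups did not overlap, but the steps were small. The fitted log2 change was 0.21 under TGF-β (SE 0.08, edgeR quasi-likelihood FDR 0.076) and 0.45 with both agents (SE 0.08, FDR 0.00469), the latter lost without TGF-β+2APB replicate 1.

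Col4a2 had 14780 and 14050 counts in DMSO, 19172 and 15700 under TGF-β, and 19278 and 19638 under TGF-β+2APB. The log2 change was 0.27 under TGF-β (SE 0.08, edgeR quasi-likelihood FDR 0.0502), just outside the threshold, and 0.41 with both agents (SE 0.08, FDR 0.00969). The first was called in 8 of 16 alternative settings and the second in 12 of 16, being lost without either DMSO or either TGF-β+2APB replicate. Col4a1 stayed between 2.13 and 2.37 times the level of Col4a2 per kilobase in the 6 libraries, the steadiest ratio among the chain pairs computed.

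Col4a1 (chr8:11198423-11312826, minus strand) and Col4a2 (chr8:11312805-11449287, plus strand) start head to head. Their annotated starts are 21 bases apart and their exons overlap by 22 bases on opposite strands. The start windows of both, from RefSeq on GRCm38.p6, are printed because this chain pair shares its start region (Col4a1 at chr8:11312777-11313076, minus strand, and Col4a2 at chr8:11312555-11312854, plus strand), with capitals as above.
Col4a1: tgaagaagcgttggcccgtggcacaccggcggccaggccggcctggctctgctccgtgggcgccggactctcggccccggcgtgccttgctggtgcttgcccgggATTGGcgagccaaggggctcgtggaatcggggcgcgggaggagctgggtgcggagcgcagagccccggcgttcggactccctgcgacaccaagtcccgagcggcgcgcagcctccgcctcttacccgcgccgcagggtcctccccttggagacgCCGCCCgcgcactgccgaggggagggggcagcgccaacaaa
Col4a2: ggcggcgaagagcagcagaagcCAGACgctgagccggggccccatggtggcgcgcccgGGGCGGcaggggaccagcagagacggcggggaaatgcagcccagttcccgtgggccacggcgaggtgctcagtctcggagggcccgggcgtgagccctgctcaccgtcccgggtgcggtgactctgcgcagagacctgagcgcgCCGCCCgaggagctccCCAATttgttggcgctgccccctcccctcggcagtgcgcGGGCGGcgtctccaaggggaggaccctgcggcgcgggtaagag
These windows share 78 bases, read on opposite strands. The Col4a1 window held 1 GC box and 1 CCAAT box, and the Col4a2 window held 1 CAGAC, 3 GC boxes and 1 CCAAT box. Their G and C content was 74.0% and 73.7%, against a median of 53.0% over all promoters.

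The chains of the other type IV networks, known from kidney and other specialised basement membranes, were near the count minimum. Col4a5 had 82 and 36 counts in DMSO, 26 and 10 under TGF-β, and 8 and 6 under TGF-β+2APB, and was the only collagen called lower than in DMSO, having passed the count minimum only through the DMSO libraries. Against DMSO its log2 change under both agents came to -3.07 (SE 0.65, edgeR quasi-likelihood FDR 0.0104), while that under TGF-β alone, -1.71, was not called (SE 0.6, FDR 0.067). The latter was called with the replicate number in the model (edgeR quasi-likelihood FDR 0.0354). Col4a3 had 32 and 28 counts in DMSO and 16 to 24 in the treated libraries, and was not called in any comparison. Col17a1, the transmembrane collagen of hemidesmosomes, had 10 and 20 counts in DMSO, 36 and 24 under TGF-β, and 88 and 60 under TGF-β+2APB. It was called for TGF-β+2APB against DMSO, at a log2 fold change of 2.26 (SE 0.48, edgeR quasi-likelihood FDR 0.0107), a call lost without DMSO replicate 1 (FDR 0.0641), and its DMSO counts alone lay under the minimum.

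As CPM (counts scaled by the library total), the collagens summed to 1120 and 1141 in DMSO, 2831 and 2793 under TGF-β, and 2446 and 2393 under TGF-β+2APB. The treated groups were both above DMSO in every library, and TGF-β+2APB lay between the others. Per kilobase of exon, type IV chains made up 63.2% and 62.9% of the collagen level in DMSO, 33.7% and 31.9% under TGF-β, and 41.0% and 41.5% under TGF-β+2APB. The share of fibrillar chains went from 3.68% and 3.90% to 8.71% and 9.81% and on to 14.6% and 13.2%. Type VII took 0.124% and 0.0943% in DMSO, 5.35% and 7.79% under TGF-β and 10.4% and 8.98% under TGF-β+2APB. FACIT chains, of which Col12a1 made up most, took 4.89% and 5%, then 13.7% and 14.6%, then 6.97% and 7.86%. These shares sum to a fixed total in each library, so a class can lose share without losing counts, and the counts of Col4a1 and Col4a2 were not lower in any treated library than in DMSO. Type VI took 1.1% and 1.22% in DMSO, 3.46% and 2.92% under TGF-β and 0.675% and 0.894% under TGF-β+2APB, so that its share under TGF-β+2APB lay below that in DMSO, although its normalized counts, 813.7 and 1030 against 615.2 and 685.9, did not.

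**Figure D4:**
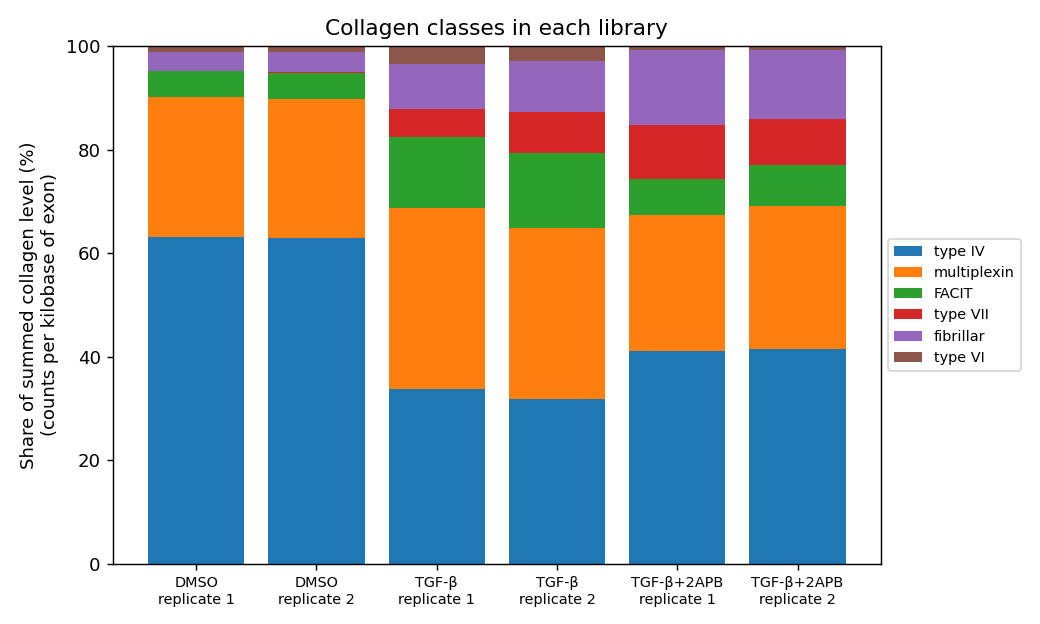
Share (%) of each collagen class in the summed collagen level per kilobase of exon, one stacked bar for each of the 6 libraries. Type IV shrinks from 63.2% and 62.9% in DMSO to 33.7% and 31.9% under TGF-β, type VII and fibrillar chains are widest under TGF-β+2APB, and the transmembrane class is too small to draw.

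Of the 19 rows under the minimum, the highest single count was 30, for Col23a1 in DMSO, against 6 in both TGF-β libraries and 16 and 14 under TGF-β+2APB. Col8a1, a network-forming chain known from endothelia, had 4 and 0 counts in DMSO, 16 and 12 under TGF-β, and 6 and 4 with both agents. Also under it were Col9a1, Col9a2, Col10a1, Col14a1, Col22a1, Col2a1, Col25a1, Col24a1, Col8a2, Col28a1, Col6a4, Col6a5 and Col6a6, all at 12 counts or fewer in each library. Col4a3bp, the gene that is no collagen, had 10468 and 10088 counts in DMSO, 8332 and 11204 under TGF-β, and 8866 and 8196 under TGF-β+2APB, and was not called in any comparison.

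Collagen chains are hydroxylated, folded, exported, trimmed, crosslinked, bound by receptors and degraded, and genes of these steps were listed by textbook role. Of 42 that were tested, 23 rose and 5 fell under TGF-β, and 6 rose and 5 fell with 2APB added to it, beside the 41.5% and 17.5% of all rows called. Lox, Loxl1, Pcolce2 and Itga11, 4 of those that rose under TGF-β, had means under 20 in DMSO and passed the count minimum through the treated libraries. The number called with 2APB added moved with single libraries. It was lower without any 1 DMSO or TGF-β+2APB library and higher without either TGF-β library. Calls over all tested rows moved in the same directions.

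Of 12 chain-modifying enzymes 8 rose under TGF-β and 0 fell, and 0 were called with 2APB added. Plod2, the lysyl hydroxylase of the telopeptides, led them, with 672 and 726 counts in DMSO, 4070 and 5696 under TGF-β and 10724 and 7786 with both agents. Its log2 fold change under TGF-β was 2.81 (SE 0.25, edgeR quasi-likelihood FDR 0.000706). Among 8 chaperone and export genes 3 rose and 2 fell under TGF-β, and 3 rose with 2APB added. The 2 falls were the rows Mia2 and Ctage5. Ctage5 had no entry under that name in the GRCm38 annotation used for positions, so these rows may not be separate genes, which was not tested. Creb3l1, a transcription factor of the secretory pathway that acts on type I collagen, had 356 and 346 counts in DMSO, 1492 and 1292 under TGF-β and 3214 and 2872 with both, a log2 rise of 1.98 (SE 0.1, edgeR quasi-likelihood FDR 0.00011) and then of 1.11 (SE 0.09, FDR 0.00375). The largest fall of this list, that of Mia2, an export factor of the endoplasmic reticulum, was -1.24 (SE 0.22, edgeR quasi-likelihood FDR 0.00742).

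Propeptide processing held the widest contrast. Pcolce2 and Pcolce both encode enhancers of the procollagen C-proteinase. Pcolce2 had 12 and 10 counts in DMSO, 2294 and 1898 under TGF-β, and 3258 and 2926 under TGF-β+2APB, a log2 rise of 7.55 under TGF-β (SE 0.16, edgeR quasi-likelihood FDR 2.12e-05). Pcolce had 2384 and 2152 counts in DMSO, 1578 and 1220 under TGF-β, and 864 and 906 under TGF-β+2APB, a log2 change of -0.70 under TGF-β (SE 0.11, edgeR quasi-likelihood FDR 0.00512) and of -0.68 with 2APB added (SE 0.11, FDR 0.0165), the latter lost without either DMSO or either TGF-β+2APB replicate. Pcolce2 differed by 0.54 with 2APB added (edgeR quasi-likelihood FDR 0.0214), called in 11 of 16 alternative settings with FDR values up to 0.188, and lost without either DMSO or either TGF-β+2APB replicate. The procollagen N-proteinase Adamts3 rose by 0.98 with 2APB added (SE 0.25, edgeR quasi-likelihood FDR 0.0493), called in 7 of 16 alternative settings and lost without any one library except TGF-β replicate 1.

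Of 5 crosslinking enzymes 4 rose under TGF-β, by the most Loxl1, at 2.95 on the log2 scale (SE 0.61, edgeR quasi-likelihood FDR 0.0127) from 2 and 8 counts in DMSO to 46 and 34. Loxl2, at 5270 and 4972 counts in DMSO and 14708 and 13132 under TGF-β, was the list's one call with 2APB added, at 0.37 (SE 0.09, edgeR quasi-likelihood FDR 0.0417), called in 8 of 16 alternative settings and lost without either DMSO or either TGF-β+2APB replicate. Of 7 collagen receptors 3 rose and 2 fell under TGF-β, and 0 rose and 2 fell with 2APB added, the integrin chains Itga1 and Itga11 changing most: Itga1 had 5682 and 5460 counts in DMSO, 594 and 736 under TGF-β, and 132 and 176 under TGF-β+2APB, whereas Itga11 had 14 and 14, then 140 and 134, then 70 and 60. Their log2 changes under TGF-β were -3.06 (SE 0.18, edgeR quasi-likelihood FDR 0.000172) and 3.28 (SE 0.29, FDR 0.000632), and Itga1 fell by a further 2.14 with 2APB added (SE 0.19, FDR 0.00398). The fall of Itga11 with 2APB, -1.1 (edgeR quasi-likelihood FDR 0.0392), was called in 7 of 16 alternative settings and was lost without any 1 of the 6 libraries. Of 5 collagen-degrading proteases 2 rose under TGF-β and 2 fell with 2APB added, and Mmp9, a gelatinase that also cuts type IV collagen, changed most, with 28 and 20 counts in DMSO, 3388 and 3156 under TGF-β, and 1354 and 950 under TGF-β+2APB. On the log2 scale it changed by 7.08 under TGF-β (SE 0.26, edgeR quasi-likelihood FDR 5.2e-05) and -1.53 with 2APB added (SE 0.19, FDR 0.0072).

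**Figure D5:**
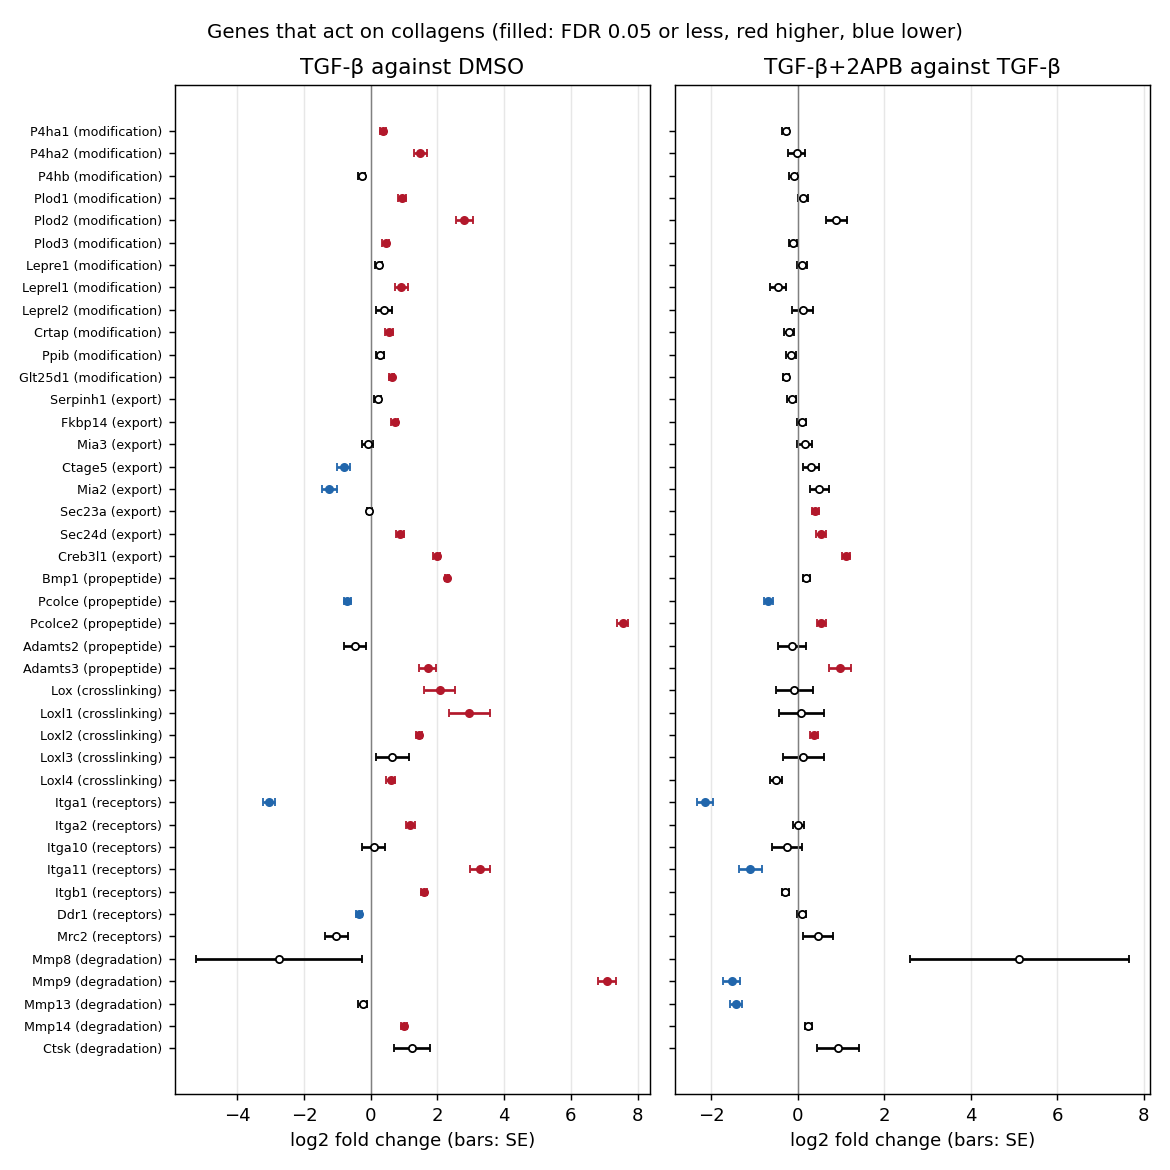
Log2 fold changes with SE of 42 genes that modify, export, process, crosslink, bind or degrade collagens, for TGF-β over DMSO (left) and TGF-β+2APB over TGF-β (right), with filled points for called changes (red higher, blue lower). On the left 23 filled points lie above 0 and 5 below, and on the right 6 lie above and 5 below, with Pcolce2 and Mmp9 furthest right on the left side and Itga1 furthest left.

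Markers of other cell types that make or accompany collagen were summed in normalized counts. The fibroblast list (5 genes in the table) ran from 88.84 to 94.34 in DMSO, 622.6 to 709 under TGF-β and 812.9 to 948.3 under TGF-β+2APB, nearly all of it Pdgfrb, at 10 and 12 counts in DMSO and 504 to 670 in the treated libraries, and Pdgfra. Pdgfra had 78 and 74 counts in DMSO, 88 and 90 under TGF-β, and 286 and 252 under TGF-β+2APB. With 2APB added it rose by 1.57 on the log2 scale (SE 0.21, edgeR quasi-likelihood FDR 0.00904). The other genes of this list, Dcn, Thy1 and Fap, stayed at 6 counts or fewer in every library. The leukocyte list ran from 409.1 to 495.3 in DMSO and 207.5 to 274.7 under TGF-β, and stood at 168.3 in TGF-β+2APB replicate 1 and at 1523 in replicate 2, where Ptprc had 36 and 752 counts. Without TGF-β+2APB replicate 2 the counts of called collagens were 12 for TGF-β against DMSO, 15 for TGF-β+2APB against DMSO and 6 for TGF-β+2APB against TGF-β, beside 36.1%, 40.1% and 9.54% of all tested rows. The endothelial list ran from 18.59 to 35.38 in DMSO, 56.03 to 62.33 under TGF-β and 273.2 to 428.1 under TGF-β+2APB. Vwf, its main gene under TGF-β+2APB, had 26 and 2 counts in DMSO, 34 and 28 under TGF-β, and 248 and 384 there. With both agents it rose by 4.48 on the log2 scale over DMSO (SE 0.9, edgeR quasi-likelihood FDR 0.00844). Over TGF-β it rose by 3.32 (SE 0.84, FDR 0.048), which was not called with the replicate number in the model (FDR 0.0951). Kdr and Tek stayed at 2 counts or fewer and Pecam1 at 10 to 26. Cdh5 had 0 and 2 counts in DMSO, 8 and 14 under TGF-β, and 18 and 22 under both agents. The myoepithelial list ran from 22.73 to 35.38, 53.95 to 124.7 and 102.6 to 114.8 in the same order. It was mostly Acta2 in the treated libraries, and its keratins Krt5 and Krt14 stayed at 4 counts or fewer. The part of these cell types in the collagen counts was otherwise not tested.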

How the data were processed

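Total RNA of 6 NMuMG libraries was sequenced by the authors as 50 bp single-end reads from oligo-dT selected RNA. They aligned with TopHat (2.0.13 in the methods), counted per gene with featureCounts and tested with DESeq2 (1.6.1 per the labels, a later version per the methods). The methods name hg19 and the submitters' processing notes mm10, and the symbols are those of mouse. The deposited values are raw counts per gene, and their even values were used as deposited.

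Counts were scaled by TMM and fitted with edgeR 4.0.16 (quasi-likelihood, legacy fit, R 4.3.3), with the 3 groups in 1 model, the mean normalized count at least 20 (13353 of 18512 rows) and Benjamini-Hochberg FDR 0.05 over all of them. SEs were taken as the absolute log2 change over the root of the F statistic. Levels, shares and ratios per kilobase used all annotated exons of a gene on GRCm38, merged over its transcripts. This length can exceed that of any 1 transcript. Exact intervals are at 95%. Code was tested on simulated data. DESeq2 1.42.0, other scalings, filters, thresholds and left-out libraries were alternatives. The collagens, the gene lists and the tests were chosen with earlier results of these data known. Values in every library are given for the 12 most abundant collagens, the 5 largest called rises and falls of each comparison, and head-to-head pairs. Genes named outside the collagens were, in each list, those with the largest called change in each direction of either step with TGF-β. The table also held 25 rows whose names had turned into dates. Protein sequences were not analysed here.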

Additional observations from a re-analysis of the deposited data

How the results depend on the processing

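No called difference turned its direction in any setting. Differences that were not called took the other sign in at least 1 of 16 settings for Col9a3 (all 3 comparisons), Col20a1 under TGF-β against DMSO (-0.09 to 0.02), and Col1a1 (-0.05 to 0.36), Col11a2 (-0.03 to 0.51), Col5a1 and Col16a1 for TGF-β+2APB against TGF-β. The called collagens numbered 12 for TGF-β against DMSO, 16 for TGF-β+2APB against DMSO and 7 for TGF-β+2APB against TGF-β. Leaving out 1 library gave 12 to 15, 13 to 17 and 4 to 12. The last count was 4 at an FDR of 0.01, 4 when the log2 change also had to reach 1 and 10 with DESeq2. Beside these, 4.5%, 6.29% and 27.7% of all tested rows were called. Calls over all tested rows also moved on leaving out 1 library, for TGF-β+2APB against TGF-β in the same directions as the collagens. Of the 42 genes of collagen biosynthesis and turnover, 28 were called with TGF-β and 11 with 2APB added. The first was 16 when the log2 change also had to reach 1. The second was 4 at an FDR of 0.01, 5 with that minimum, 7 with the replicate block, 4 with the 4 libraries compared alone, 18 with DESeq2 and 4 to 22 on leaving out 1 library. The summed collagen CPM (1130 in DMSO, 2812 in TGF-β and 2420 in TGF-β+2APB on average) was 1106 in DMSO and 2474 in TGF-β+2APB with TMM scaling, and 641, 2256 and 1779 without Col4a1. The causes of these shifts were not tested.

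Replicate numbers did not pair the samples: same-numbered deviations correlated at 0.148, -0.458 and -0.255. With the replicate block 13, 16 and 7 collagens were called, beside 35.5%, 47.6% and 10.1% of all tested rows. With the TGF-β+2APB numbers exchanged, a setting chosen after seeing the data, they were 13, 17 and 8, beside 42.7%, 54.2% and 18.5%. The newer edgeR fit, also added then, gave 13, 16 and 8, beside 42.7%, 53.7% and 18.5%. With 2 libraries a group, collagens under about 100 counts (Col4a3, Col4a5, Col6a3, Col9a3, Col11a1, Col17a1) are the least precise.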
